A study of Arabidopsis thaliana with 18 samples.

Results

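Of the 161 miRNA entries of the deposited table, 78 carry a family number of 770 or higher, the numbers given to miRNAs of *Arabidopsis thaliana* named after the widely conserved families. This is an account of 52 of them, the entries that remained after 26 others of these numbers were set aside by name: those of 16 families, such as miR822, miR824 and miR825, and 11 further entries, such as miR779.2 and miR5650. Some of the 26 had been set aside for how they moved between the groups, so the 52 are a trimmed remainder and not a random draw, although the rule itself uses names and no measured value. The 52 entries cover 56 mature names from 49 miRNA genes, since entries such as miR781a/miR781b hold several names of identical sequence. The working name of young miRNAs fits most but not all of them: miR845, miR858 and miR2111 are also known from other flowering plants. The other 109 entries are called the other entries below.

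Small RNA was sequenced from whole 4-d-old seedlings, 3 libraries in each of 6 groups. *dcl1-24/hyl1-2* is a single suppressor line, found after chemical mutagenesis of *hyl1-2*, which carries a proline-to-serine substitution in an RNase III domain of DCL1 on top of *hyl1-2*. *hyl1-2* is a mutant of HYL1, and both mutants are in the background of Col-0, the wild type. Every seedling was grown in red light for 96 h, at 21 °C for the first 48 h and then for another 48 h at 27 °C or at 21 °C. The light is given as 50 µmol m-2 s-1 in the study and as 50 mmol m-2 s-1 in the sample labels. The libraries are called biological replicates, but whether they came from separate plantings is not stated, so the spread between them may be partly technical. HYL1 and DCL1 transcripts are not among the entries, so the genotypes could not be checked here.

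A plant miRNA is cut out of a hairpin precursor by the RNase III enzyme DCL1, whose partner HYL1, a double-stranded RNA-binding protein, helps to place the cuts and to keep the guide strand. The mature guide strand is loaded into AGO1 and directs the cleavage or the repression of matching mRNAs, while the opposite (passenger) strand is mostly lost. miRNAs of recent origin are typically weakly expressed, come from a single gene and often lie inside other genes. For some of the entries described here a target is well known: miR846 and miR842 act on jacalin lectin genes, miR858 on the MYB genes of flavonol synthesis, miR845 on the primer binding sites of retrotransposons in pollen, miR847 on the auxin repressor gene IAA28, miR826a on the glucosinolate gene AOP2 under nitrogen starvation, miR773a on the DNA methyltransferase gene MET2, and the miR2111 family on a kelch-repeat F-box gene. miR838 comes from an intron of DCL1 itself.

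The sequences of the most abundant members and of those with the largest differences are shown first, 5′ to 3′, with the seed (bases 2 to 8) in capitals. All mature sequences were read from the TAIR10.1 assembly at the positions that RefSeq annotates, and all 56 names matched.
miR846-3p: uUGAAUUGaagugcuugaauu
miR845a: cGGCUCUGauaccaauugaug
miR858a: uUUCGUUGucuguucgaccuu
miR858b: uUCGUUGUcuguucgaccuug
miR781a: uUAGAGUUuucuggauacuua
miR5996: uGACAUCCagauagaagcuuug
miR852: aAGAUAAGcgccuuaguucug
miR862-5p: uCCAAUAGgucgagcaugugc
miR862-3p: aUAUGCUGgaucuacuugaag
miR833a-5p: uGUUUGUUguacucggucuagu
miR5639-5p: uAGUCCACuguggucuaaggc
miR1888a: uAAGUUAAgauuugugaagaa
No seed was shared among the members apart from names of identical sequence, and miR833a-5p shared its seed with miR833b, which is not a member. miR858b is the same 20 bases as miR858a, moved by a single base. In length, 41 of the 52 entries were 21 nt, as were 86 of the 109 other entries, and 30 began with U, the base that AGO1 prefers, as did 61 of the other entries. An A came first in 15 members and 17 other entries, and a G in 2 members and 16 other entries.

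Members of the miR845 and miR829 families share a run of bases with the end of a tRNA-Met. The 3′ end of the initiator tRNA-Met primes the reverse transcription of many retrotransposons. They are shown again with that run, up to the CCA that is added to every tRNA, in capitals.
miR845a: cGGCUCUGAUACCAauugaug
miR845b: ucGCUCUGAUACCAaauugaug
miR829-3p.1: aGCUCUGAUACCAaaugauggaau
miR8175: GAUCCCCGGCAACGGCGCCA
The run ahead of the CCA in miR845a, miR845b and miR829-3p.1 is the 3′ end of 8 of the 684 annotated tRNA genes, all of them tRNA-Met. All 20 bases of miR8175 match the end of 22 tRNA-Asp genes with their CCA, so reads of tRNA-Asp ends cannot be told apart from miR8175. miR845a (chr4:12217457-12217477, minus strand) and miR845b (chr4:12214086-12214107, minus strand) come from genes 3238 bases apart, and miR829-3p.1 (chr1:11834094-11834117, minus strand) from another chromosome.

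Of the 49 genes, 14 lie in an intron of a protein-coding gene in the sense direction, 7 over an exon of another gene in the sense direction, 5 antisense to another gene and 23 over no other annotated gene. miR838 (chr1:28635-28655, plus strand) lies in intron 14 of DCL1. miR862-5p (chr2:10718106-10718126, plus strand) and miR862-3p lie in an intron of PKL, a chromatin remodelling factor gene, and miR5996 (chr4:7882848-7882869, minus strand) over an exon of UNE15. miR846-3p (chr1:22577662-22577682, plus strand) lies over no other gene, and MIR846 starts 109 bases after MIR842. MIR858b and MIR858a are 603 bases apart on chromosome 1. miR5642a and miR5642b match 541 bases upstream of 18S rRNA genes on chromosomes 2 and 3, on the same strand, and the deposited values are themselves relative to rRNA reads. miR5663-5p and miR5663-3p are exact reverse complements of each other, and the MIR781a and MIR781b annotations, like MIR5995b and MIR5595a, overlap on opposite strands, so the strand of origin of such reads was not separated here.

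Levels are in RPMR, the reads of a miRNA relative to 45S rRNA reads of its library, scaled to 1e+06 of them. On this scale 1 read corresponded to 0.240 to 0.896 RPMR, the libraries held 11040 to 173156 miRNA reads, and 218 to 2732 of these were of the 52 members. The depth was lowest in *hyl1-2* at 21 °C, where the members had 218 to 280 reads per library and 23 to 28 of the 52 entries were above 0, against 40 to 42 in Col-0 at 21 °C. A value of 0 there allows up to 1.02 to 1.67 RPMR (3 reads, for counting error only). Together the members summed to 326 to 997 RPMR at 27 °C and 401 to 973 RPMR at 21 °C in *dcl1-24/hyl1-2*. They summed to 155 to 358 RPMR at 27 °C and 74.2 to 156 RPMR at 21 °C in *hyl1-2*, against 404 to 1056 RPMR at 27 °C and 478 to 1353 RPMR at 21 °C in Col-0. Of the 6 libraries of *hyl1-2*, 5 lay below all libraries of the other genotypes, and the exception was replicate 1 at 27 °C with 358 RPMR. The members' share of all miRNA RPMR was 1.54 to 2.04% in *hyl1-2*, against 0.907 to 1.83% in *dcl1-24/hyl1-2* and 1.31 to 2.62% in Col-0.

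The 5 entries of highest mean level were miR846-3p, miR845a, miR858a, miR781a/miR781b and miR5996, with means of 196 to 13.4 RPMR over the 18 libraries, which rank them 16th to 62nd of the 161 entries. miR846-3p had 120.3, 166 and 360.2 RPMR at 27 °C and 289, 137 and 246 RPMR at 21 °C in *dcl1-24/hyl1-2*. It had 124, 65.3 and 51.7 RPMR at 27 °C and 67.1, 70.6 and 25.5 RPMR at 21 °C in *hyl1-2*, against 215, 397 and 179.5 RPMR at 27 °C and 467, 225 and 325 RPMR at 21 °C in Col-0. The level was lower in *hyl1-2* than in Col-0 without overlap at both temperatures, and *dcl1-24/hyl1-2* overlapped with Col-0. The other strand, miR846-5p, was 5.52 to 26.2 times less abundant than miR846-3p in a library and passed no comparison on this scale. miR842 from the neighbouring gene had at most 2.48 RPMR in any library, and miR846-3p was 225 times more abundant over the 18 libraries.

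miR858a had 38.3, 101 and 146 RPMR at 27 °C and 105, 81.2 and 134 RPMR at 21 °C in *dcl1-24/hyl1-2*. It had 24.0, 21.3 and 11.7 RPMR at 27 °C and 12.1, 13.4 and 7.83 RPMR at 21 °C in *hyl1-2*, against 128, 279.9 and 80.9 RPMR at 27 °C and 162, 108 and 128 RPMR at 21 °C in Col-0. All 6 libraries of *hyl1-2* lay below all 12 libraries of the other genotypes. miR858b, its copy moved by a base, was listed at 0 to 3.27 RPMR. Reads of miR858b also match MIR858a exactly, and the placing of such reads was the aligner's.

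**Figure D1:**
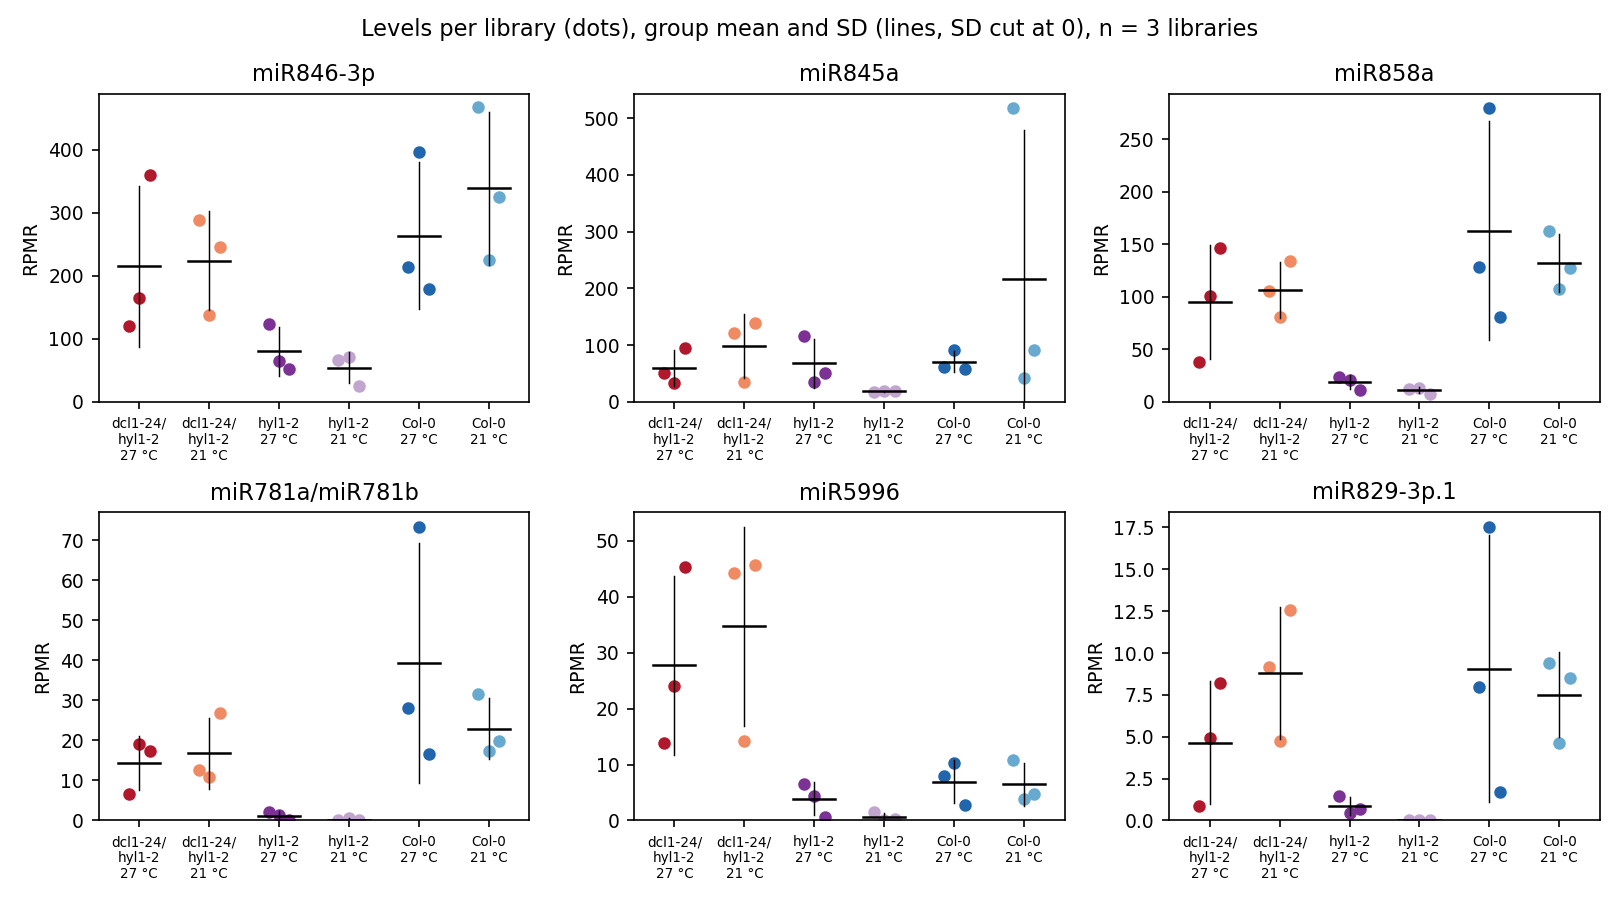
RPMR (vertical axis, linear, from 0) of the 5 most abundant members and of miR829-3p.1 in each library, by group; dots are libraries, horizontal lines group means and vertical lines the SD (n = 3). *hyl1-2* has the lowest group means for miR846-3p, miR858a and miR781a/miR781b, miR5996 lies highest in *dcl1-24/hyl1-2*, and 1 library of Col-0 at 21 °C carries 517 RPMR of miR845a.

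miR845a had 51.9, 33.4 and 95.0 RPMR at 27 °C and 121, 34.4 and 139.8 RPMR at 21 °C in *dcl1-24/hyl1-2*. It had 117, 36.0 and 51.0 RPMR at 27 °C and 17.7, 19.5 and 19.1 RPMR at 21 °C in *hyl1-2*, against 61.5, 91.8 and 58.4 RPMR at 27 °C and 517, 42.2 and 91.2 RPMR at 21 °C in Col-0. Col-0 at 21 °C replicate 1 stood apart from its 2 fellow libraries, and it held the only value in the series at which miR845a exceeded miR846-3p. miR845b was 23.7 times less abundant than miR845a over all libraries. miR845b had 0.870, 0.445 and 2.18 RPMR at 27 °C and 6.68, 0.944 and 0 RPMR at 21 °C in *dcl1-24/hyl1-2*. It had 9.38, 2.66 and 5.34 RPMR at 27 °C and 1.51, 5.56 and 3.06 RPMR at 21 °C in *hyl1-2*, against 2.09, 5.30 and 3.75 RPMR at 27 °C and 10.9, 2.11 and 4.73 RPMR at 21 °C in Col-0. The 3 libraries of *dcl1-24/hyl1-2* at 27 °C lay below those of *hyl1-2* at 27 °C, and at 21 °C the genotypes overlapped.

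miR781a/miR781b had 6.67, 19.2 and 17.5 RPMR at 27 °C and 12.5, 10.9 and 26.9 RPMR at 21 °C in *dcl1-24/hyl1-2*. It had 2.16, 1.33 and 0 RPMR at 27 °C and 0, 0.556 and 0 RPMR at 21 °C in *hyl1-2*, against 28.0, 73.5 and 16.7 RPMR at 27 °C and 31.7, 17.3 and 19.8 RPMR at 21 °C in Col-0. This miRNA was at 0 in 3 of the 6 libraries of *hyl1-2*. miR5996 had 13.9, 24.1 and 45.3 RPMR at 27 °C and 44.3, 14.2 and 45.7 RPMR at 21 °C in *dcl1-24/hyl1-2*. It had 6.49, 4.44 and 0.667 RPMR at 27 °C and 1.51, 0 and 0.340 RPMR at 21 °C in *hyl1-2*, against 7.95, 10.2 and 2.73 RPMR at 27 °C and 10.9, 3.80 and 4.73 RPMR at 21 °C in Col-0. The libraries of *dcl1-24/hyl1-2* lay above all libraries of both other genotypes, at both temperatures.

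In *hyl1-2* against Col-0 at 27 °C, 9 of the 36 members that could be tested were lower at an adjusted p under 0.05, among them miR781a/miR781b, miR858a, miR5651, miR844-3p and miR846-3p. At 21 °C 13 of the 36 were lower, which added miR845a, miR829-5p, miR829-3p.2, miR838, miR843 and miR5996. No member was higher at either temperature, and none was so at an unadjusted limma p under 0.05. Of the calls, 7 were made at both temperatures, 77.8% of those at 27 °C and 53.9% of those at 21 °C. The test was limma on log2(RPMR + 1) over all 18 libraries, for the 139 entries whose mean reached 1 RPMR, with p-values adjusted over all 139. On this scale the change of a low miRNA is understated. Among all 139 entries 54.0% passed as lower at 27 °C and 59.7% at 21 °C, and 1.44% and 0.719% as higher. The members' 25.0% and 36.1% are smaller, but are not read against this background. Some entries had been set aside for how they moved. The tested members also had lower median levels in Col-0 than the other entries, where this scale understates a change. The 16 remaining members missed the limit of 1 RPMR. A member that reached it only through the group where it was high had to differ, so these counts describe the 36 and support nothing about all 52.

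The median log2 fold change of the 36 was -0.82 at 27 °C and -1.02 at 21 °C, against -1.62 and -1.95 over all 139 entries. With members that were at 0 throughout a group set at the limit of 3 reads, the median at 21 °C was -0.76. The largest decrease was that of miR781a/miR781b, with -4.11 ± 0.71 (SE, limma, adjusted p = 1.7e-06) at 27 °C and -4.32 ± 0.71 (SE, limma, adjusted p = 1.7e-07) at 21 °C. It lay -2.49 and -2.38 from the median entry, and the call held under each of the 10 other settings and without each of the 18 libraries in turn.

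The flavonol regulator miR858a had -2.90 ± 0.73 (SE, limma, adjusted p = 0.00058) at 27 °C and -3.48 ± 0.73 (SE, limma, adjusted p = 3.3e-05) at 21 °C. miR5651 had -2.83 ± 0.62 (SE, limma, adjusted p = 0.00011) and -2.77 ± 0.62 (SE, limma, adjusted p = 7.2e-05) at the same temperatures. It was at 0 in 4 of 6 libraries of *hyl1-2* and at 2.53 to 14.2 RPMR in Col-0. On the 45S rRNA scale these calls held without each library in turn.

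miR829-3p.1, which shares the tRNA-Met run with miR845, was the member of highest level among those at 0 in every library of a group. miR829-3p.1 had 0.870, 4.90 and 8.19 RPMR at 27 °C and 9.19, 4.72 and 12.5 RPMR at 21 °C in *dcl1-24/hyl1-2*. It had 1.44, 0.444 and 0.667 RPMR at 27 °C and 0 in each library at 21 °C in *hyl1-2*, against 7.95, 17.5 and 1.71 RPMR at 27 °C and 9.41, 4.64 and 8.51 RPMR at 21 °C in Col-0. The difference between *hyl1-2* and Col-0 at 21 °C was -3.04 ± 0.65 (SE, limma, adjusted p = 4.1e-05), and the mean in Col-0 was at least 5.37-fold higher than 3 reads per library of *hyl1-2* allow. At 27 °C the difference was -2.08 ± 0.65 (SE, limma, adjusted p = 0.0052), and the call was lost without Col-0 at 27 °C replicate 2 (0.092), where the value in brackets is the adjusted limma p. miR844-3p was also at 0 in *hyl1-2* at 21 °C, against 3.47, 1.69 and 3.78 RPMR in Col-0 (-1.95 ± 0.53 SE, limma, adjusted p = 0.00093), at least 2.13-fold higher in Col-0.

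The retrotransposon regulator miR845a had -2.69 ± 0.76 (SE, limma, adjusted p = 0.0014) at 21 °C, *hyl1-2* against Col-0, and lost the call without Col-0 at 21 °C replicate 1 (0.069), the library that stood apart above. At 27 °C it had -0.20 ± 0.76 (SE, limma, adjusted p = 0.86). miR845b had 0.46 ± 0.65 (SE, limma, adjusted p = 0.58) and -0.55 ± 0.65 (SE, limma, adjusted p = 0.47) at 27 and 21 °C. The difference between the temperatures in the effect of *hyl1-2* on miR845a, 2.49 ± 1.08 (SE, limma, adjusted p = 0.99), did not pass the test.

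miR846-3p had -1.72 ± 0.72 (SE, limma, adjusted p = 0.036) at 27 °C and -2.69 ± 0.72 (SE, limma, adjusted p = 0.00079) at 21 °C. The call at 27 °C was lost without *hyl1-2* at 27 °C replicate 2 (0.11), *hyl1-2* at 27 °C replicate 3 (0.13), Col-0 at 27 °C replicate 1 (0.068) or Col-0 at 27 °C replicate 2 (0.15) (adjusted limma p in brackets). miR852, whose call at 21 °C (-2.28 ± 0.69 SE, limma, adjusted p = 0.0029) held without each library in turn though not under other settings, had -1.57 ± 0.69 (SE, limma, adjusted p = 0.045) at 27 °C and lost that call without *hyl1-2* at 27 °C replicate 2 (0.31), *hyl1-2* at 21 °C replicate 2 (0.053), *hyl1-2* at 21 °C replicate 3 (0.057), Col-0 at 27 °C replicate 1 (0.081), Col-0 at 27 °C replicate 2 (0.16) or Col-0 at 21 °C replicate 3 (0.05004) (adjusted limma p in brackets). miR838, from the DCL1 intron, was at 0 in *hyl1-2* at 21 °C, against 1.49, 3.38 and 0.473 RPMR in Col-0. miR838 had a mean in Col-0 only 1.27-fold (log2 of 0.34) above what 3 reads per library of *hyl1-2* allow. Its difference of -1.33 ± 0.53 (SE, limma, adjusted p = 0.023) lost the call without *hyl1-2* at 21 °C replicate 1 (0.053), *hyl1-2* at 21 °C replicate 2 (0.056), *hyl1-2* at 21 °C replicate 3 (0.063) or Col-0 at 21 °C replicate 2 (0.16) (adjusted limma p in brackets).

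The directions above are on the 45S rRNA scale. Scaled instead to summed miRNA RPMR, to that sum without miR5026, or by median-of-ratios factors, the median entry had -0.38, 0.26 and -0.21 at 27 °C and -0.21, 0.21 and -0.36 at 21 °C. The calls then split into 5 higher and 5 lower, 9 and 2, and 5 and 4 at 27 °C, and into 6 higher and 5 lower, 7 and 4, and 3 and 6 at 21 °C. miR781a/miR781b stayed lower under each (-3.04, -2.40 and -2.74 at 27 °C). miR846-3p turned, with 0.10, 0.93 and 0.33 at 27 °C and 0.15, 0.72 and -0.05 at 21 °C, as did miR845a at 21 °C, with 0.11, 0.67 and -0.09. With the sum without miR5026, miR846-3p passed as higher in *hyl1-2* at 27 °C (limma, adjusted p = 0.015) and 21 °C (limma, adjusted p = 0.046). The call of miR858a at 27 °C was lost at -0.30 (0.44) with the sum without miR5026, and that at 21 °C at -0.72 (0.099) with the sum and -0.15 (0.69) with the sum without miR5026, where brackets hold the adjusted limma p, "the sum" is that of all miRNA RPMR and "the factors" are the median-of-ratios ones. The call of miR852 at 21 °C was lost at -0.92 (0.089) with a pseudocount of 5, -1.45 (0.11) with the sum, -1.10 (0.26) with the sum without miR5026 and -1.53 (0.071) with the factors, and that of miR829-3p.1 at 27 °C at -0.88 (0.12) with the sum, -0.28 (0.63) with the sum without miR5026 and -0.67 (0.22) with the factors. Those of miR838 and miR5996 at 21 °C were lost under the 3 other scalings and with a pseudocount of 5. Relative to 45S rRNA, the count at 27 °C was 6 without *hyl1-2* replicate 2, 6 without Col-0 replicate 1 and 5 without Col-0 replicate 2.

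In *dcl1-24/hyl1-2* against *hyl1-2*, 20 of the 36 tested members were higher at 27 °C and 28 at 21 °C, and miR5996, miR852 and miR781a/miR781b had 3 of the 4 largest increases at 27 °C and the 3 largest at 21 °C. Of these, 17 were higher at both temperatures, 85% of those at 27 °C and 60.7% of those at 21 °C. miR845b was lower at 27 °C, and no member was lower at 21 °C, also at an unadjusted limma p under 0.05. Among all 139 entries 47.5% passed as higher at 27 °C and 79.9% at 21 °C, and 2.88% and 2.16% as lower. The members' 55.6% and 77.8% are not read against this background. Of the 36, 11 had a mean under 1 RPMR over the libraries of *hyl1-2* and Col-0. They reached the limit for a test only through *dcl1-24/hyl1-2*, where they are high. All of them were among the members higher at 27 °C, and most among those at 21 °C. The median log2 fold change of the 36 was 1.46 at 27 °C and 2.02 at 21 °C, as it was 1.46 and 2.09 over all entries, and 1.36 and 1.95 for the 36 with groups at 0 set at 3 reads.

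**Figure D2:**
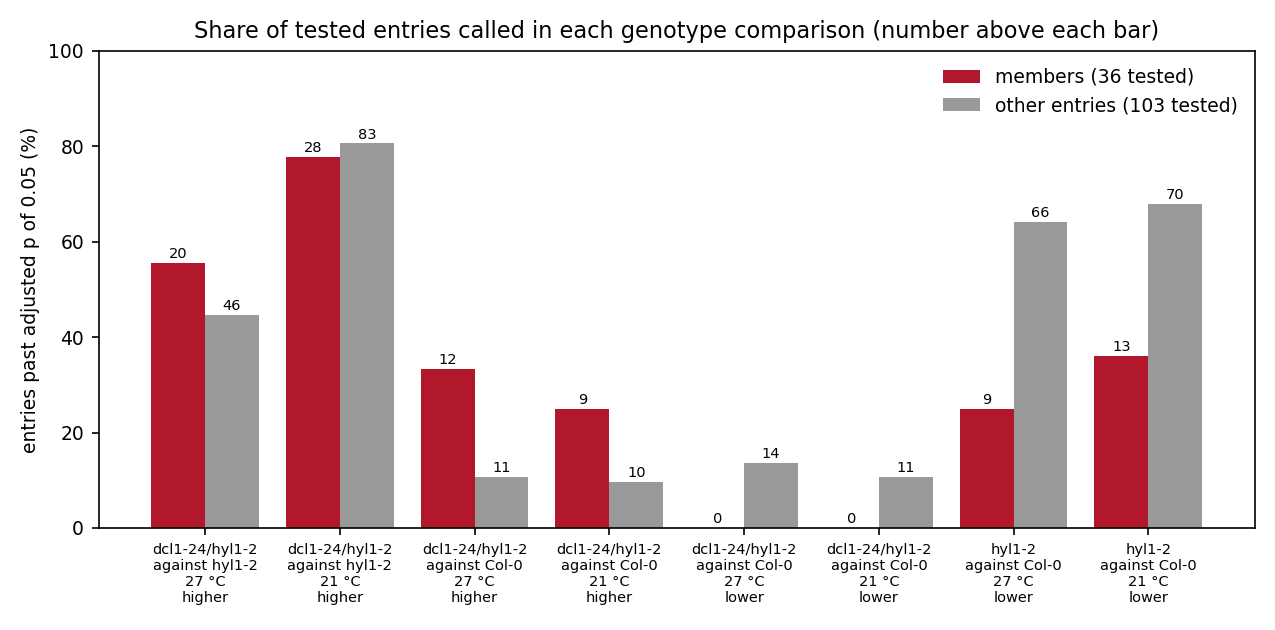
Percentage of tested entries past an adjusted p of 0.05 (vertical axis, linear) in each genotype comparison, direction and temperature, for the 36 tested members and the 103 tested other entries; the number above a bar is the count. Against Col-0, *dcl1-24/hyl1-2* had 12 and 9 higher members and 0 lower at 27 and 21 °C, and *hyl1-2* had 9 and 13 lower members.

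miR5996 had 2.66 ± 0.72 (SE, limma, adjusted p = 0.0019) at 27 °C and 4.41 ± 0.72 (SE, limma, adjusted p = 7.4e-07) at 21 °C, the largest increase among the members at 21 °C. miR852, from an intron of AT4G14500, had 5.22, 18.3 and 51.3 RPMR at 27 °C and 9.19, 13.7 and 26.9 RPMR at 21 °C in *dcl1-24/hyl1-2*. In *hyl1-2* it had 2.16, 0 and 3.0 RPMR at 27 °C and 0.504, 0 and 0 RPMR at 21 °C. The groups did not overlap at either temperature, with 2.98 ± 0.69 (SE, limma, adjusted p = 0.00079) at 27 °C and 3.81 ± 0.69 (SE, limma, adjusted p = 3.5e-06) at 21 °C. miR781a/miR781b had 2.87 ± 0.71 (SE, limma, adjusted p = 0.001) and 3.83 ± 0.71 (SE, limma, adjusted p = 4.7e-06) at the same temperatures. These 6 calls held without each library in turn on the 45S rRNA scale, but not all did so on other scales. With the adjusted limma p in brackets, miR5996 lost its call at 27 °C at 0.93 (0.32) with the sum, 1.34 (0.14) with the sum without miR5026 and 1.40 (0.1) with the factors. miR852 lost it there at 1.49 (0.16) with the sum, 1.91 (0.081) with the sum without miR5026 and 1.90 (0.056) with the factors, and miR781a/miR781b at 1.59 (0.069) with the sum.

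Among the members with a known target, miR858a had 2.13 ± 0.73 (SE, limma, adjusted p = 0.013) at 27 °C and 3.16 ± 0.73 (SE, limma, adjusted p = 0.00016) at 21 °C. The call at 27 °C was lost without *dcl1-24/hyl1-2* at 27 °C replicate 2 (0.06), *dcl1-24/hyl1-2* at 27 °C replicate 3 (0.089) or *hyl1-2* at 27 °C replicate 3 (0.074), and at 0.08 (0.93) with the sum, 0.47 (0.25) with the sum without miR5026 and 0.59 (0.18) with the factors (adjusted limma p in brackets). That at 21 °C was lost at 0.11 (0.84) with the sum and 0.45 (0.2) with the sum without miR5026. miR846-3p passed at 21 °C, with 2.09 ± 0.72 (SE, limma, adjusted p = 0.0073), though not without *hyl1-2* at 21 °C replicate 3 (0.055), and had 1.36 ± 0.72 (SE, limma, adjusted p = 0.1) at 27 °C. miR845a passed at 21 °C, with 2.10 ± 0.76 (SE, limma, adjusted p = 0.01), though not without *dcl1-24/hyl1-2* at 21 °C replicate 3 (0.065), and had -0.13 ± 0.76 (SE, limma, adjusted p = 0.9) at 27 °C. Both turned under other scalings at 21 °C, miR846-3p to -1.04, -0.70 and -0.37 and miR845a to -0.98, -0.64 and -0.32.

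miR845b was the single member lower in *dcl1-24/hyl1-2* than in *hyl1-2*, with -1.60 ± 0.65 (SE, limma, adjusted p = 0.034) at 27 °C. Under the other 3 scalings it had -3.01, -2.98 and -2.72. The call was lost without *dcl1-24/hyl1-2* at 27 °C replicate 1 (0.058), *dcl1-24/hyl1-2* at 27 °C replicate 2 (0.13), *hyl1-2* at 27 °C replicate 1 (0.13) or *hyl1-2* at 27 °C replicate 3 (0.076) (adjusted limma p in brackets). miR845a and miR845b, 3238 bases apart, had ratios at 27 °C of 43.5 to 75 in the libraries of *dcl1-24/hyl1-2*, 9.56 to 13.5 in those of *hyl1-2* and 15.6 to 29.4 in those of Col-0. At 21 °C *dcl1-24/hyl1-2* (18.1 to 36.5, 2 libraries with miR845b) overlapped with Col-0 (19.3 to 47.5), and *hyl1-2* had 3.5 to 11.7. This ratio was chosen for description after the values were seen. Its warm values for *dcl1-24/hyl1-2* divide by few reads, since miR845b had 0.870, 0.445 and 2.18 RPMR there. Replicate 1 lay at the limit of 3 reads, and replicate 2, which gave the ratio of 75, at 1 read. The lower call of miR845b rests on the same few reads.

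With the 3 other scalings in the order given above, the calls split into 1 higher and 4 lower, 11 and 3, and 11 and 1 at 27 °C, and into 11 higher and 5 lower, 11 and 3, and 14 and 2 at 21 °C. miR5996, miR852, miR781a/miR781b and miR829-3p.1 passed at 21 °C under each setting tried.

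In *dcl1-24/hyl1-2* against Col-0, 12 of the 36 tested members were higher at 27 °C and 9 at 21 °C, and none was lower. The 9 were all among the 12, which is 75% of them: miR5996, miR833a-5p, both strands of miR862, miR3440b-5p, miR3434-5p, miR5024-3p, miR5639-5p and miR860. miR1888a, miR5632-3p and miR5637 were added at 27 °C. Among all 139 entries 16.5% passed as higher at 27 °C and 13.7% at 21 °C, and 10.1% and 7.91% as lower. The members' shares of higher calls were 33.3% and 25%, but 7 of the 12 and 5 of the 9 (miR862-5p, miR862-3p, miR5024-3p, miR3440b-5p and miR860 at both temperatures, with miR5632-3p and miR5637 at 27 °C) had a mean under 1 RPMR over the 12 libraries of *hyl1-2* and Col-0. They reached the limit for a test only through *dcl1-24/hyl1-2*, where they are high, and had to differ. Of the 25 members at 1 RPMR or more outside *dcl1-24/hyl1-2*, 5 were higher at 27 °C and 4 at 21 °C. Some entries set aside by name had been chosen as not recovered in *dcl1-24/hyl1-2* and others as above Col-0 there, so neither the 0 lower nor the 12 and 9 higher members are read against the background. At an unadjusted limma p under 0.05, 14 members passed as higher at 27 °C and 15 at 21 °C, and 1 and 0 as lower. miR846-3p, miR858a, miR845a and miR845b were not among the calls.

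miR5996 was the most abundant of the 12, with 1.84 ± 0.72 (SE, limma, adjusted p = 0.043) at 27 °C and 2.21 ± 0.72 (SE, limma, adjusted p = 0.016) at 21 °C. It was also the only member that was lower in *hyl1-2* than in Col-0 and higher in *dcl1-24/hyl1-2* than in Col-0 at 21 °C. Its call at 27 °C was lost without *dcl1-24/hyl1-2* at 27 °C replicate 2 (0.096), *dcl1-24/hyl1-2* at 27 °C replicate 3 (0.17), *hyl1-2* at 21 °C replicate 2 (0.0504), *hyl1-2* at 21 °C replicate 3 (0.054), Col-0 at 27 °C replicate 1 (0.071) or Col-0 at 27 °C replicate 3 (0.17), and that at 21 °C without *dcl1-24/hyl1-2* at 21 °C replicate 1 (0.079), *dcl1-24/hyl1-2* at 21 °C replicate 3 (0.07), Col-0 at 21 °C replicate 2 (0.074) or Col-0 at 21 °C replicate 3 (0.063) (adjusted limma p in brackets). With other settings the call at 27 °C was lost at 1.93 (0.065) with a pseudocount of 0.5, 1.84 (0.063) with a filter at 5 RPMR, 1.52 (0.061) with the sum and 1.84 (0.12) with a fit of only the 2 groups. All 6 libraries of *dcl1-24/hyl1-2* nonetheless lay above all 6 of Col-0, 13.9 RPMR being the lowest value in *dcl1-24/hyl1-2* and 10.9 RPMR the highest in Col-0.

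Both strands of miR862, from the PKL intron, were among these calls. Over the libraries of *hyl1-2* and Col-0, miR862-5p had a mean of 0.15 RPMR and miR862-3p of 0.076 RPMR. Both reached the limit for a test only through *dcl1-24/hyl1-2*, so their p-values are no independent evidence of an increase. miR862-5p had 1.45, 3.12 and 4.91 RPMR at 27 °C and 3.34, 4.25 and 11.7 RPMR at 21 °C in *dcl1-24/hyl1-2*. It had 0, 0.444 and 0 RPMR at 27 °C and 0 in each library at 21 °C in *hyl1-2*, against 0.419, 0 and 0 RPMR at 27 °C and 0.495, 0 and 0.473 RPMR at 21 °C in Col-0. miR862-3p had 1.16, 1.78 and 3.82 RPMR at 27 °C and 2.09, 2.83 and 9.86 RPMR at 21 °C in *dcl1-24/hyl1-2*. It had 0 in each library at 27 °C and 0.504, 0 and 0 RPMR at 21 °C in *hyl1-2*, against 0, 0.408 and 0 RPMR at 27 °C and 0 in each library at 21 °C in Col-0. In Col-0, miR862-5p was at 0 in 3 of 6 libraries and miR862-3p in 5 of 6. miR862-5p had 1.80 ± 0.50 (SE, limma, adjusted p = 0.0036) at 27 °C and 2.34 ± 0.50 (SE, limma, adjusted p = 0.00015) at 21 °C and kept both calls without each library. The fits without a library kept the filter of all 18 libraries, so they cannot address how miR862-5p came to be tested. miR862-3p had 2.33 ± 0.48 (SE, limma, adjusted p = 0.0001) at 21 °C, at least 3.54-fold higher than 3 reads per library of Col-0. At 27 °C it had 1.45 ± 0.48 (SE, limma, adjusted p = 0.017), a call that was lost without *dcl1-24/hyl1-2* at 27 °C replicate 3 (0.087) or Col-0 at 27 °C replicate 1 (0.069), and at 0.48 (0.08) with a pseudocount of 5 and 1.45 (0.057) with a fit of only the 2 groups (adjusted limma p in brackets). Neither strand dominated: miR862-5p was 1.18 to 1.75 times as abundant as miR862-3p in the libraries of *dcl1-24/hyl1-2*.

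**Figure D3:**
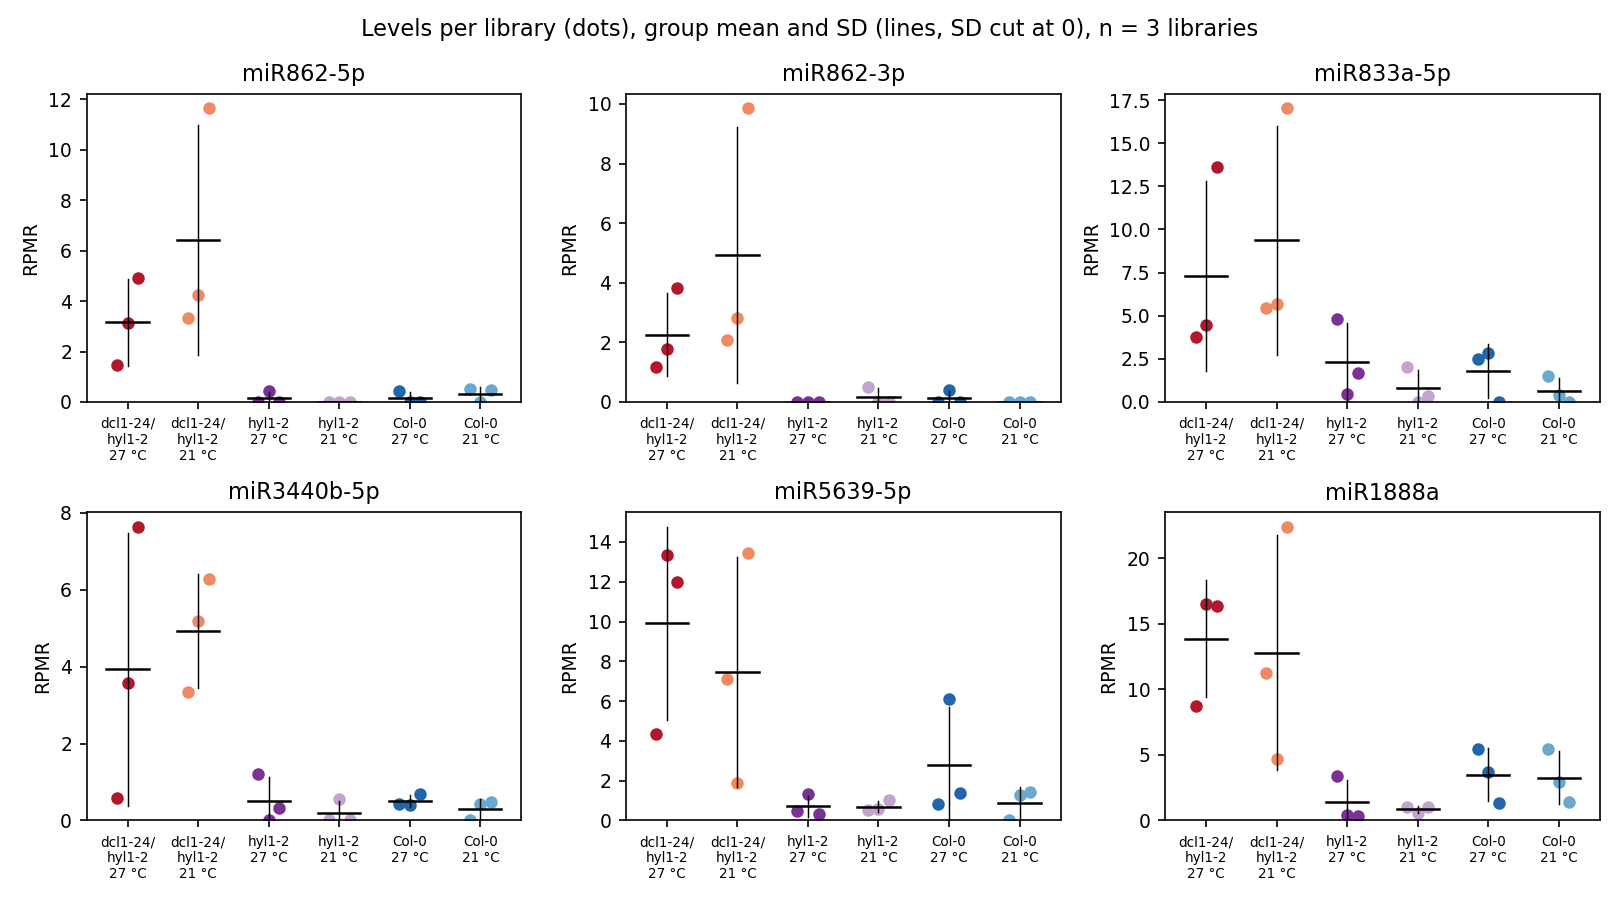
RPMR (vertical axis, linear, from 0) of 6 members that were higher in *dcl1-24/hyl1-2* than in Col-0, in each library by group; dots are libraries, horizontal lines group means and vertical lines the SD (n = 3). miR862-5p and miR862-3p are at 1.16 RPMR or more in each library of *dcl1-24/hyl1-2* and at 0.504 RPMR or less in each library of *hyl1-2* and Col-0.

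miR833a-5p, from an intron of AT1G78476, had a level of 5.43, 5.66 and 17.0 RPMR in *dcl1-24/hyl1-2* at 21 °C, against 1.49, 0.422 and 0 RPMR in Col-0. The difference was 2.59 ± 0.62 (SE, limma, adjusted p = 0.00079), the largest of this comparison, and was called without each library in turn. Its other strand, miR833a-3p, was under the limit for a test, with 1.25, 0.944 and 1.79 RPMR in *dcl1-24/hyl1-2* and 0.495, 0.422 and 0 RPMR in Col-0 at 21 °C. At 27 °C miR833a-5p had 1.60 ± 0.62 (SE, limma, adjusted p = 0.043), a call that was lost without *dcl1-24/hyl1-2* at 27 °C replicate 2 (0.0502), *dcl1-24/hyl1-2* at 27 °C replicate 3 (0.24), *hyl1-2* at 21 °C replicate 2 (0.054), *hyl1-2* at 21 °C replicate 3 (0.062) or Col-0 at 27 °C replicate 3 (0.23), and at 1.96 (0.054) with a pseudocount of 0.5, 0.80 (0.064) with a pseudocount of 5, 1.60 (0.055) with no filter, 1.27 (0.13) with the sum, 1.60 (0.1) with a fit of only the 2 groups and 1.17 (0.14) with array weights (adjusted limma p in brackets).

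miR3440b-5p, over an exon of a transcribed pseudogene, had 3.34, 5.19 and 6.27 RPMR in *dcl1-24/hyl1-2* at 21 °C, against 0, 0.422 and 0.473 RPMR in Col-0. With a mean of 0.37 RPMR over the libraries of *hyl1-2* and Col-0, it too reached the limit only through *dcl1-24/hyl1-2*. Its p-values, also those without single libraries, are likewise no independent evidence. The difference of 2.18 ± 0.53 (SE, limma, adjusted p = 0.00079) was called without each library in turn, while that at 27 °C, 1.40 ± 0.53 (SE, limma, adjusted p = 0.036), was lost without *dcl1-24/hyl1-2* at 27 °C replicate 2 (0.12), *dcl1-24/hyl1-2* at 27 °C replicate 3 (0.25), Col-0 at 27 °C replicate 1 (0.1) or Col-0 at 27 °C replicate 2 (0.085), and at 1.73 (0.054) with a pseudocount of 0.5, 0.83 (0.15) with the sum, 1.10 (0.066) with the factors and 1.40 (0.1) with a fit of only the 2 groups (adjusted limma p in brackets). miR1888a, from an intron of AT5G21100, had 8.70, 16.5 and 16.4 RPMR in the warm libraries of *dcl1-24/hyl1-2*, against 5.44, 3.67 and 1.37 RPMR in those of Col-0. The groups did not overlap and differed by 1.79 ± 0.66 (SE, limma, adjusted p = 0.033), lost without *dcl1-24/hyl1-2* at 27 °C replicate 2 (0.11), *dcl1-24/hyl1-2* at 27 °C replicate 3 (0.082), Col-0 at 27 °C replicate 2 (0.059) or Col-0 at 27 °C replicate 3 (0.13), and at 1.94 (0.054) with a pseudocount of 0.5 and 1.79 (0.1) with a fit of only the 2 groups (adjusted limma p in brackets). At 21 °C miR1888a had 1.58 ± 0.66 (SE, limma, adjusted p = 0.071).

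The count at 27 °C rested on single libraries: it was 1 without *dcl1-24/hyl1-2* replicate 3, 6 without *dcl1-24/hyl1-2* replicate 2, 5 without Col-0 replicate 3 and 7 without Col-0 replicate 1, and 4 in a fit of only the 2 groups. At 21 °C it was 6 without *dcl1-24/hyl1-2* replicate 3, 5 without Col-0 replicate 2 and 6 without Col-0 replicate 3. *dcl1-24/hyl1-2* replicate 3 had the highest total of all miRNAs at both temperatures, 80581 RPMR at 27 °C and 107318 RPMR at 21 °C. With the 3 other scalings in the order above, 6, 17 and 12 members passed as higher at 27 °C, where 3, 0 and 0 passed as lower, and 6, 12 and 12 passed as higher at 21 °C with none as lower. The log2 fold changes of the named members among the 12 stayed above 0 under each setting and without each library.

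The 12 members above Col-0 all lie over another annotated gene: 8 in an intron of a protein-coding gene in the sense direction, of 13 tested members in such a place, and 4 of the 9 that lie over another gene in another way (miR5996, miR860, miR3440b-5p and miR5639-5p). Of the 14 tested members that lie over no other gene, which include miR846-3p, miR858a, miR845a and the strands of miR829, none was higher than Col-0 at 27 or 21 °C. Among the other entries, 0 of 71 over no other gene were higher at 27 or 21 °C. At 27 °C, 4 of 6 in a sense intron and 7 of 26 over another gene in another way were higher. Some of these entries had been set aside by name as above Col-0, so they are no independent support for the split. At 21 °C, 5 of the 13 intronic members and 4 of the 9 were higher, and 3 of 6 and 7 of 26 of the other entries. The limit for a test built in part of this split: 6 of the 13 intronic members, 4 of the 9 and 1 of the 14 had a mean under 1 RPMR outside *dcl1-24/hyl1-2*, and 5, 2 and 0 of these were higher at 27 °C. Among the members at 1 RPMR or more outside *dcl1-24/hyl1-2*, 3 of 7 intronic members, 2 of 5 and 0 of 13 were higher at 27 °C, and 2 of 7, 2 of 5 and 0 of 13 at 21 °C. Among the other entries at that level outside *dcl1-24/hyl1-2*, 2 of 4, 4 of 23 and 0 of 69 were higher at both temperatures. The split was noticed in these data and is a description with no test, since entries of a gene or of neighbouring genes are not independent.

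**Figure D4:**
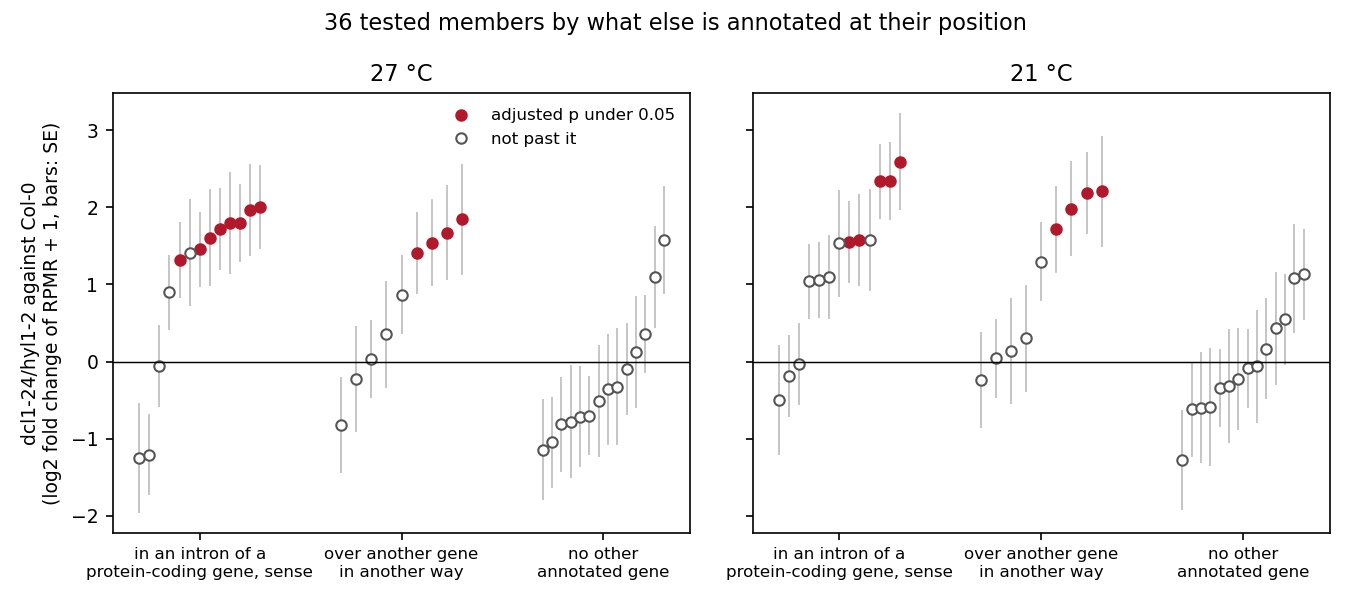
Log2 fold change of RPMR + 1 in *dcl1-24/hyl1-2* against Col-0 (vertical axis; bars, standard error) of the 36 tested members at 27 and 21 °C, by what else is annotated at their position; filled points passed an adjusted p of 0.05. The 12 and 9 filled points all lie over another gene, and the 14 members over no other gene have none.

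The level in Col-0 moved with position. The mean over the 6 libraries of Col-0 had a median of 1.21 RPMR (0.0680 to 31.2) for the 13 intronic members, 1.83 RPMR (0.401 to 7.64) for the 9 and 6.38 RPMR (1.28 to 301) for the 14, and for the 71 other entries over no other gene the median was 38.4 RPMR. The part of this difference in level in the result was not tested. With summed miRNA RPMR 6 of the 13 and none of the 9 or the 14 were higher at 27 °C, with median-of-ratios factors 9, 2 and 1, and with the sum without miR5026 10, 5 and 2. With the latter, 3 and 4 of the 71 other entries over no other gene were higher at 27 and 21 °C. In *hyl1-2* against Col-0, in contrast, 4 of the 14 over no other gene, 2 of the 9 and 3 of the 13 intronic members were lower at 27 °C, and 8, 1 and 4 at 21 °C.

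No member passed between 27 and 21 °C in any genotype (limma, adjusted p under 0.05). For none did the difference of *hyl1-2* from Col-0, or of *dcl1-24/hyl1-2* from *hyl1-2*, change with temperature at that limit. The change with temperature of *dcl1-24/hyl1-2* against Col-0 was not tested. At an unadjusted p under 0.05 there were 4 members in *dcl1-24/hyl1-2*, 3 in *hyl1-2* and 0 in Col-0. For the change with temperature of *dcl1-24/hyl1-2* against *hyl1-2* there were 3, and 2 for that of *hyl1-2* against Col-0. Of all 139 entries, 1.44% were lower and 0.0% higher in *dcl1-24/hyl1-2*, 0.0% either way in *hyl1-2*, and 0.719% lower and 0.0% higher in Col-0, and 0.0% passed either test of a change with temperature. The lowest unadjusted p belonged to miR5637 and miR843 in *dcl1-24/hyl1-2*, singled out after their values were seen. miR5637 had 2.90, 5.34 and 14.7 RPMR at 27 °C and 3.34, 2.36 and 0 RPMR at 21 °C there (1.58, limma, adjusted p = 0.13), and 1 warm library, at 2.90 RPMR, lay within the range at 21 °C. miR843 had 1.45, 0.445 and 0.546 RPMR at 27 °C and 2.51, 2.36 and 14.3 RPMR at 21 °C (-1.68, limma, adjusted p = 0.13), without overlap. The median of the 36 was -0.34 in *dcl1-24/hyl1-2*, 0.21 in *hyl1-2* and 0.07 in Col-0, against -0.03, 0.58 and 0.18 over all entries.

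The miR829 hairpin gave 3 entries, of which the 5p strand had the highest mean. miR829-5p had 4.93, 18.3 and 39.8 RPMR at 27 °C and 11.3, 7.55 and 34.1 RPMR at 21 °C in *dcl1-24/hyl1-2*. It had 6.73, 3.11 and 3.0 RPMR at 27 °C and 1.01, 1.67 and 0.681 RPMR at 21 °C in *hyl1-2*, against 10.9, 34.7 and 7.51 RPMR at 27 °C and 20.3, 5.49 and 9.92 RPMR at 21 °C in Col-0. miR829-5p was above 0 in all 18 libraries, miR829-3p.1, the only 24-nt member, in 15 and miR829-3p.2 in 11. The ratio of summed miR829-5p to miR829-3p.1 was 4.52 at 27 °C and 2.00 at 21 °C in *dcl1-24/hyl1-2*, against 1.95 and 1.58 in Col-0, and the ranges over libraries overlapped with those of Col-0 at both temperatures. miR829-5p passed in *dcl1-24/hyl1-2* against *hyl1-2* at 27 °C (1.73 ± 0.73 SE, limma, adjusted p = 0.04) and 21 °C (2.89 ± 0.73 SE, limma, adjusted p = 0.00041), and in *hyl1-2* against Col-0 at 21 °C (-2.46 ± 0.73 SE, limma, adjusted p = 0.0022). The call at 27 °C was lost without *dcl1-24/hyl1-2* at 27 °C replicate 2 (0.1), *dcl1-24/hyl1-2* at 27 °C replicate 3 (0.31), *hyl1-2* at 27 °C replicate 2 (0.11) or *hyl1-2* at 27 °C replicate 3 (0.13) (adjusted limma p in brackets). All 3 calls were lost under the 3 other scalings, with -0.13, 0.22 and 0.33 at 27 °C and 0.52, 0.83 and 1.10 at 21 °C for *dcl1-24/hyl1-2*, and -0.38, 0.10 and -0.54 for *hyl1-2*.

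The 16 members under the limit for a test are given by their levels. They are miR841a-5p, miR841a-3p, miR842, miR8175, miR861-3p, miR830-3p, miR773a, miR831-3p, miR870-3p, miR5656, miR847, miR5028, miR2112-3p, miR833a-3p, miR826a and miR5643a/miR5643b, with means of 0.394 to 0.913 RPMR. Their sum was 8.70 to 21.8 RPMR at 27 °C and 14.2 to 17.9 RPMR at 21 °C in *dcl1-24/hyl1-2*. It was 2.33 to 5.77 and 1.36 to 5.01 RPMR in *hyl1-2*, against 7.17 to 20.4 and 6.62 to 16.3 RPMR in Col-0, at 27 and 21 °C. All 6 sums in *hyl1-2* lay below the 12 sums of the other genotypes.

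Among them, miR841a-5p, the neighbour of miR5996 at a distance of 2361 bases between their genes, was at 0 in all 6 libraries of Col-0 and had 1.45, 1.34 and 2.73 RPMR at 27 °C and 1.67, 0 and 6.27 RPMR at 21 °C in *dcl1-24/hyl1-2*. Its 3p strand was at 1.16, 1.78 and 0.546 RPMR and 1.25, 0.944 and 0.896 RPMR there, against 0.419, 0.408 and 0.341 RPMR and 0.495, 0 and 0 RPMR in Col-0. In *hyl1-2*, miR841a-5p had 0.240, 0 and 0 RPMR at 27 °C and 0.504, 2.23 and 0 RPMR at 21 °C. miR841a-3p had 0.721, 1.33 and 0.334 RPMR at 27 °C in *hyl1-2*, which overlapped with *dcl1-24/hyl1-2*, and 0 in each library at 21 °C. miR5656, from an intron of AT1G05780, had 0.290, 2.23 and 4.37 RPMR and 1.67, 0.944 and 0.896 RPMR in *dcl1-24/hyl1-2* and was at 0 in 5 of the 6 libraries of Col-0. All of these values are few reads, and miR5656 was singled out after its values were seen.

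The regulators with a known target among the 16 had few reads, with at most 4.46 RPMR in a library, and many of their values were near or under the limit of 3 reads. miR773a was at 0 in all 6 libraries of *hyl1-2* and in 4 of 6 of *dcl1-24/hyl1-2*, against 2.09, 3.26 and 0.341 RPMR at 27 °C and 0.495, 2.11 and 0 RPMR at 21 °C in Col-0. miR826a was above 0 in 1 library of *dcl1-24/hyl1-2*, in none of *hyl1-2* and in all 6 of Col-0, where it had 0.837, 0.408 and 0.683 RPMR and 4.46, 0.422 and 0.945 RPMR. miR847 was at 0 in *hyl1-2* at 21 °C, against 0.990, 0.845 and 0.473 RPMR in Col-0, and had 0.835, 0.944 and 0 RPMR in *dcl1-24/hyl1-2*. These members were not tested. miR8175, the tRNA-Asp end, was above 0 in 16 of the 18 libraries and had 0.721, 1.33 and 0.667 RPMR at 27 °C and 1.01, 0.556 and 0.681 RPMR at 21 °C in *hyl1-2*, against 1.26, 0.408 and 2.05 RPMR and 0, 1.27 and 0.945 RPMR in Col-0.

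Of the 36 tested members, miR5654-3p, miR5642b/miR5642a, miR846-5p and miR866-3p passed no comparison on the 45S rRNA scale, and each passed some on other scales. With the 3 other scalings in the order above and the adjusted limma p in brackets, *hyl1-2* against Col-0 at 21 °C had 1.32 (0.0086), 1.83 (0.0018) and 1.12 (0.04) for miR846-5p and 1.79 (0.011), 2.17 (0.0048) and 1.63 (0.025) for miR866-3p, all higher in *hyl1-2*. At 27 °C miR866-3p had 1.71 (0.018), 2.24 (0.0058) and 1.78 (0.019) and miR5654-3p 1.95 (0.0098), 2.50 (0.0011) and 2.04 (0.004). For miR5642b/miR5642a the values at 21 °C were 2.03 (0.047), 2.30 (0.036) and 1.84 (0.071). miR5642b/miR5642a, upstream of the 18S rRNA genes, had 2.32, 0.445 and 0 RPMR at 27 °C and 4.18, 0 and 2.69 RPMR at 21 °C in *dcl1-24/hyl1-2*. It had 3.37, 0 and 1.67 RPMR and 0.504, 4.45 and 2.38 RPMR in *hyl1-2*, against 1.26, 7.75 and 0.341 RPMR and 4.95, 0 and 4.25 RPMR in Col-0, so the groups overlapped. At 21 °C miR2111b-3p, the passenger strand of the kelch F-box regulator, differed between *dcl1-24/hyl1-2* and *hyl1-2* by 1.57 ± 0.59 (SE, limma, adjusted p = 0.013). Its groups overlapped there, and the call was lost without *dcl1-24/hyl1-2* at 21 °C replicate 3 (0.22), *hyl1-2* at 21 °C replicate 1 (0.078) or *hyl1-2* at 21 °C replicate 3 (0.056) (adjusted limma p in brackets). miR5663-5p was at 0 in all 6 libraries of *hyl1-2* and in each library of *dcl1-24/hyl1-2* at 1.45 to 3.58 RPMR, at least 1.74-fold and 2.14-fold higher at 27 and 21 °C. Col-0 overlapped with *dcl1-24/hyl1-2*, with 1.26, 4.08 and 0.683 RPMR at 27 °C and 0, 0.422 and 1.89 RPMR at 21 °C. With a mean of 0.69 RPMR over the libraries of *hyl1-2* and Col-0, miR5663-5p reached the limit for a test only through *dcl1-24/hyl1-2*. Its increase over *hyl1-2* is therefore a description and no independent evidence.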

How the data were processed

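Small RNA of 18 libraries, 3 in each of 6 groups of genotype and temperature, was analysed. Per the labels and the study's methods, the authors excised the small RNA from a gel, built the libraries with the NEBNext small RNA kit, trimmed reads with cutadapt 3.0, and aligned them to the Araport11 genome with ShortStack, without mismatches and with multi-mapping reads placed by weight. The authors deposited the level of each entry as RPMR, an RPM value taken over the 45S rRNA reads of the library, and also used DESeq2 1.35.0, whose comparisons were not used here. A change in rRNA reads therefore moves every entry of a library.

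Every value was a whole multiple of what 1 read is worth in its library, to within 1.09e-10 of a read, which gave the depth and the limit of 3 reads. No count test was run on these reads. limma 3.58.1 (R 4.3.3) was fitted to log2(RPMR + 1) with a variance trend, equal weights and 6 group means, over entries with a mean of 1 RPMR or more, with Benjamini-Hochberg adjustment over all of them and two-sided tests at 0.05. The fit was tested on simulated data with changes planted only in more abundant entries, which does not show how it treats members of low level. Python 3.11.15, numpy 2.4.6, pandas 2.3.3, scipy 1.17.1 and matplotlib 3.10.9 were used for the rest. Named members are those of the highest mean level, those with the largest called changes in each comparison, those with a well-known target and those with several entries from a precursor. The fit was repeated with pseudocounts of 0.5 and 5, without a filter, with a filter at 5 RPMR, with 3 other scalings, array weights, a fit of only the groups compared, the replicate number as a block, and leaving out each library. The members and lists were chosen with earlier results of these data known. Sequences and positions are from RefSeq on TAIR10.1.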

Additional observations from a re-analysis of the deposited data

How the results depend on the processing

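With libraries scaled to summed miRNA RPMR, to that sum without miR5026, and by median-of-ratios factors, *hyl1-2* had 5, 4 and 6 members below Col-0 at 21 °C and 5, 2 and 4 at 27 °C. The members then higher in *dcl1-24/hyl1-2* than in *hyl1-2* numbered 11, 11 and 14 at 21 °C and 1, 11 and 11 at 27 °C. The sum also gave 6 higher and 3 lower members in *dcl1-24/hyl1-2* against Col-0 at 27 °C, and both sums gave 1 member that changed with temperature in *hyl1-2*. Under the sum, the sum without miR5026 and the factors, *hyl1-2* against Col-0 turned to 0.11 and 0.67 (sums) for miR845a and to 0.15 and 0.72 (sums) for miR846-3p at 21 °C, to 0.10 for miR829-5p at 21 °C and to 0.18 for miR852 at 27 °C (sum without miR5026), and to 0.10, 0.93 and 0.33 for miR846-3p at 27 °C. *dcl1-24/hyl1-2* against *hyl1-2* turned to -0.98, -0.64 and -0.32 for miR845a and -1.04, -0.70 and -0.37 for miR846-3p at 21 °C, and with the sum to -0.050 for miR2111b-3p and -0.067 for miR5639-5p at 21 °C and -0.13 for miR829-5p at 27 °C. These values are log2 fold changes. A change of scale moves all entries of a library together, and which scale is closer to the levels in the seedlings was not tested. The 0.93 and 0.72 of miR846-3p passed as higher in *hyl1-2* (limma, adjusted p = 0.015 and 0.046).

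A filter at 5 RPMR, which tests fewer members, left 11 and 6 higher in *dcl1-24/hyl1-2* against *hyl1-2* at 21 and 27 °C, and 1 and 1 against Col-0. A fit of only the groups compared gave 5 and 4 against Col-0, and a pseudocount of 0.5 gave 7 at 27 °C. Array weights gave 15 lower members in *hyl1-2* against Col-0 at 27 °C and 2 lower in *dcl1-24/hyl1-2* against Col-0 at 27 °C, where no filter gave 1. The cause was not tested. Without single libraries, the counts of lower members in *hyl1-2* against Col-0 ran from 10 to 15 at 21 °C and from 5 to 13 at 27 °C. Those of higher members ran from 23 to 29 and from 14 to 25 in *dcl1-24/hyl1-2* against *hyl1-2*, and from 5 to 11 and from 1 to 13 against Col-0, where 0 to 1 were lower at each temperature. The members that changed with temperature in *dcl1-24/hyl1-2* numbered 0 to 1.

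The replicate block gave 13 and 9 lower members in *hyl1-2* against Col-0 and 9 and 12 higher in *dcl1-24/hyl1-2* against Col-0 at 21 and 27 °C, and changed none of the 79 calls of named members. The numbers are not stated to mark a shared planting, and same-numbered libraries deviated together in all 3 pairs in only 2 of the comparisons of groups. Depth limits the 16 members under 1 RPMR.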
